A study of Mus musculus with 2 samples.

Results

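The genes described here are 35 members of the hypoxia response and of glycolysis, measured in single cells of whole mouse lung in 1 library titled injured and 1 titled control. They were taken as a list of symbols, which matched 36 gene IDs in the files, because Aldoa stood on 2 IDs and the second had no count. Of all genes, 19144 had a count in the injured library and 18748 in the control library. The list was selected on the levels of its genes in these same libraries, so the levels and ratios below are descriptions of 2 libraries, and no test is given. All 35 symbols had counts in both libraries, and adenylate kinase gene Ak4 had the fewest, with 8 injured and 1 control count.

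Cells sense low oxygen through hypoxia-inducible factor, whose alpha subunit (Hif1a) is hydroxylated by the Egln prolyl hydroxylases and destroyed while oxygen is plentiful. When oxygen falls, or when inflammatory signals stabilise the subunit, the factor binds short sites in its target genes and raises glucose uptake, glycolysis, lactate export, the angiogenic factor Vegfa, the vasodilator peptide adrenomedullin (Adm) and mitophagy receptors such as Bnip3. In the lung, capillary endothelium produces several of these products, and neutrophils depend largely on glycolysis for their energy.

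Both libraries came from C57BL/6 mice that carry the SP-C I73T mutation, a mutant form of surfactant protein C, which is made by alveolar type 2 cells. Tamoxifen at 175 mg/kg by a single gavage in corn oil removes a neomycin cassette and increases expression of the mutant protein. The dose of 175 mg/kg is recorded for both libraries, the control included. The study compared lungs at 14 days after injury with lungs at steady state. Groups were taken from the titles, since the treatment tags run the other way (the injured library is tagged untreated and the control library tamoxifen treated), and the labels do not say how many animals went into a library. Lungs were lavaged, perfused and digested with collagenase D, so cells from the airspace fluid were partly removed before sequencing.

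After filtering, 2302 cells of the injured library with 19877688 UMIs (unique molecular identifiers, each counting 1 captured RNA molecule) and 2298 cells of the control library with 15980253 UMIs were kept. Injured cells had a median depth of 3266.5 UMIs and control cells of 4485 UMIs, and the libraries shared 1 barcode. Cells were clustered without the 35 genes, clusters were named from marker genes, and UMI counts were summed per class and library and given as CPM, counts scaled to a fixed total per class and library. Intervals are exact 95% intervals that cover counting error only. A gene is called higher or lower where its ratio of injured to control passed 1.5-fold with at least 20 counts over both libraries. With 1 library per condition, the spread between mice is unknown, and a difference cannot be told apart from a difference between these 2 preparations. Gapdh, Eno1, Pgk1, Ldha, Tpi1, Aldoa and Pgam1 have near-identical copies in the genome, so their counts are uncertain to that extent.

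Promoters of 4 of the genes with the highest ratios in endothelial cells are shown because the hypoxia-inducible factor recognises the core ACGTG or GCGTG. Only a window with a match could be shown, and for a gene with several windows the one with the most matches was taken. The matches shown therefore follow in part from this choice. Another window of Pfkfb3 held 1 match. The windows run from 250 bases before to 50 after the transcription start in RefSeq (build GRCm38.p6), are written 5′ to 3′ on the gene's strand, and have in capitals the core on either strand (CACGT and CACGC are its complements, and overlapping matches count separately). The Adm window lies at chr7:110627407-110627706 on the + strand with 2 matches, that of Ankrd37 at chr8:45999801-46000100 on the − strand with 4, that of Bnip3 at chr7:138909457-138909756 on the − strand with 5, and that of Pfkfb3 at chr2:11502041-11502340 on the − strand with 4.
Adm: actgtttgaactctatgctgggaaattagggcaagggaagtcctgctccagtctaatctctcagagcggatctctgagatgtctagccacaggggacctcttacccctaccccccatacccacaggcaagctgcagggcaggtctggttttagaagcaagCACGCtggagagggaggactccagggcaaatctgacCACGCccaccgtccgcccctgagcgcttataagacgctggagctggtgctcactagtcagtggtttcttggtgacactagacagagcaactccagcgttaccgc
Ankrd37: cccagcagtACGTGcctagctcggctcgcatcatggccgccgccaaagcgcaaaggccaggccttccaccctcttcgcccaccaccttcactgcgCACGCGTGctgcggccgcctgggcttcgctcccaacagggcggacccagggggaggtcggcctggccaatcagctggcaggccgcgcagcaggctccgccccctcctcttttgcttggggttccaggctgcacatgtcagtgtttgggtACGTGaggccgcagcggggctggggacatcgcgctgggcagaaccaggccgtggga
Bnip3: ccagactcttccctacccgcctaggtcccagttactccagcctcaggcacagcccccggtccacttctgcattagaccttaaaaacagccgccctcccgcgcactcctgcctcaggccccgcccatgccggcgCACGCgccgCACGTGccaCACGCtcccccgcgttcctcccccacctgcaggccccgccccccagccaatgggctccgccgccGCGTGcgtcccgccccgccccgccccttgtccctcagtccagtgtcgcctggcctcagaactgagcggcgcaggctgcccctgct
Pfkfb3: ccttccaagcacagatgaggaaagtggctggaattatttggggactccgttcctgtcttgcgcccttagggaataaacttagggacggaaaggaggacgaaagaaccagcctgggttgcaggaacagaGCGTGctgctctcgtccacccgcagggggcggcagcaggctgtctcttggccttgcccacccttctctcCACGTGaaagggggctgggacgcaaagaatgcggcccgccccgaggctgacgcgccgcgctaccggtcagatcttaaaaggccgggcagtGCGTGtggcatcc
Of the 35 symbols, 32 had a window (Ero1l under its RefSeq symbol Ero1a), while Slc2a3, Bnip3l and Ndrg1 had none. A core match stood in 40 of the 48 windows of these genes (83.3%) and in 14380 of all 32851 windows (43.8%). The genes' windows were also richer in G and C, with a median of 65% against 52.7% over all windows. Among windows with at least 65% G and C, 24 of 25 of these genes' windows and 4312 of 6011 of all windows (71.7%) held a match. A match is a run of letters and does not show that the factor binds there.

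Summed over the whole library, 18 of the 34 genes with enough counts were higher in the injured library and 0 were lower, where 20.9% of all 14566 genes were higher and 15.6% lower. The 35 genes together held 6519 CPM in the injured library, against 3945 CPM in the control library. In such sums, more cells of a type that uses a gene and more RNA per cell cannot be told apart. The widest ratio was that of Egln3, the hydroxylase that itself responds to the factor, with 16.5 CPM in the injured library, against 1.001 CPM in the control library (328 and 16 counts), or 16.5 times as much (10.00–29.2).

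Hif1a itself was higher, with 185 CPM in the injured library, against 62.2 CPM in the control library (2.97, 2.77–3.19). The glucose transporter gene Slc2a1 was higher at 46.9 CPM in the injured library, against 15.5 CPM in the control library (ratio 3.03, 2.63–3.50). Vegfa was higher at 61.1 CPM, against 30.9 CPM (1.98, 1.78–2.20), but with each cell weighted the same the call was lost and the log2 ratio of 0.98 became -0.00662. Alveolar epithelial-like cells held 56.9% of the injured Vegfa counts and endothelial-like cells 58.3% of the control ones. The lower part of glycolysis, from aldolase to lactate dehydrogenase, moved most evenly, since 7 of its 8 measured genes were called higher. Among them the phosphoglycerate mutase gene Pgam1 had 402 CPM in the injured library, against 116 CPM in the control library (3.47, 3.30–3.65). Ratios were 2.21 (2.09–2.34) for the phosphoglycerate kinase gene Pgk1, 2.06 (1.99–2.14) for the lactate dehydrogenase gene Ldha and 1.59 (1.56–1.62) for Gapdh. Ankrd37, a small ankyrin-repeat protein gene induced by hypoxia, had a ratio of 2.98 (2.38–3.76), the mitophagy receptor gene Bnip3 3.12 (2.68–3.63), the stress-induced inhibitor of mTOR signalling Ddit4 2.64 (2.20–3.20) and Ndrg1 2.55 (2.14–3.04). Adm was under the threshold over the whole library, at 4.13 CPM in injured and 3.75 CPM in control cells (1.10, 0.778–1.56). The other 6 genes called higher, Pfkfb3, Tpi1, Pkm, Hk2, Eno1 and Slc16a3, had ratios between 1.64 and 2.52. The 16 measured genes that were not called lay between 0.792 (0.697–0.901) for the collagen prolyl hydroxylase gene P4ha1 and 1.44 for Ero1l and Mxi1.

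Ratios were then taken in the 7 classes with at least 50 cells in each library, and the map of ratios by class shows which genes passed the threshold in which class.

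**Figure D1:**
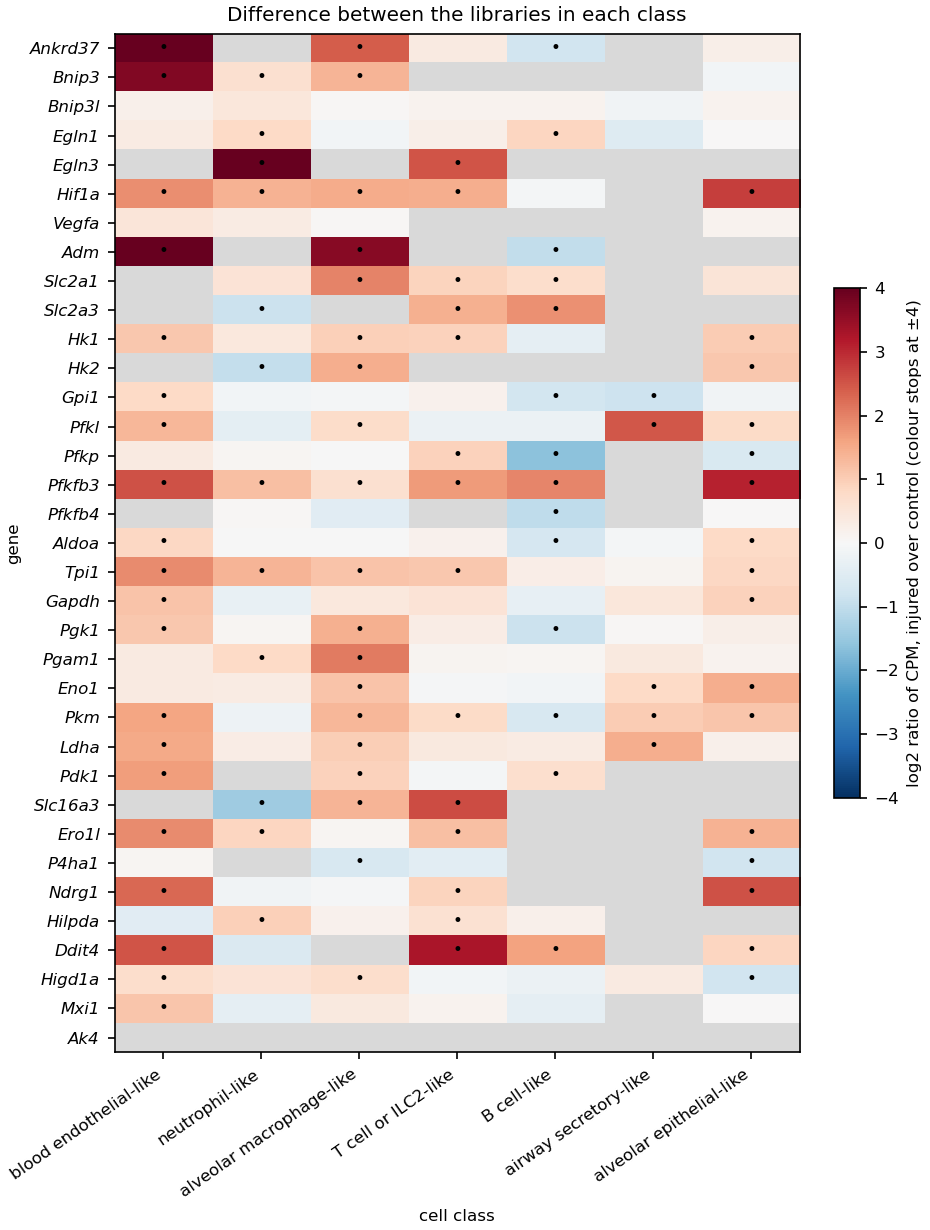
Log2 ratio of CPM, injured over control, for the 35 genes (rows) in the 7 classes compared (columns); red is higher and blue lower in the injured library, dots mark ratios past 1.5-fold, grey marks genes with fewer than 20 counts, and the colour stops at 4 in either direction. The blood endothelial-like column is red almost throughout, with 20 genes higher and 0 lower, while the B cell-like column holds 6 higher and 8 lower.

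Blood endothelial-like cells numbered 91 injured and 385 control cells, with median depths of 1425 and 1271 UMIs. All 12 endothelial markers were detected in both, at a summed 15959 CPM in injured and 19584 CPM in control cells. The 35 genes were broadly higher in the injured cells. Of 28 measured, 20 were called higher and 0 lower, where 20.3% of the 7482 genes measured in these cells were higher and 18.8% lower. Their median log2 ratio was 1.13, against 0.03 over all genes, and together they held 7726 CPM in injured cells, against 3559 CPM in control cells.

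**Figure D2:**
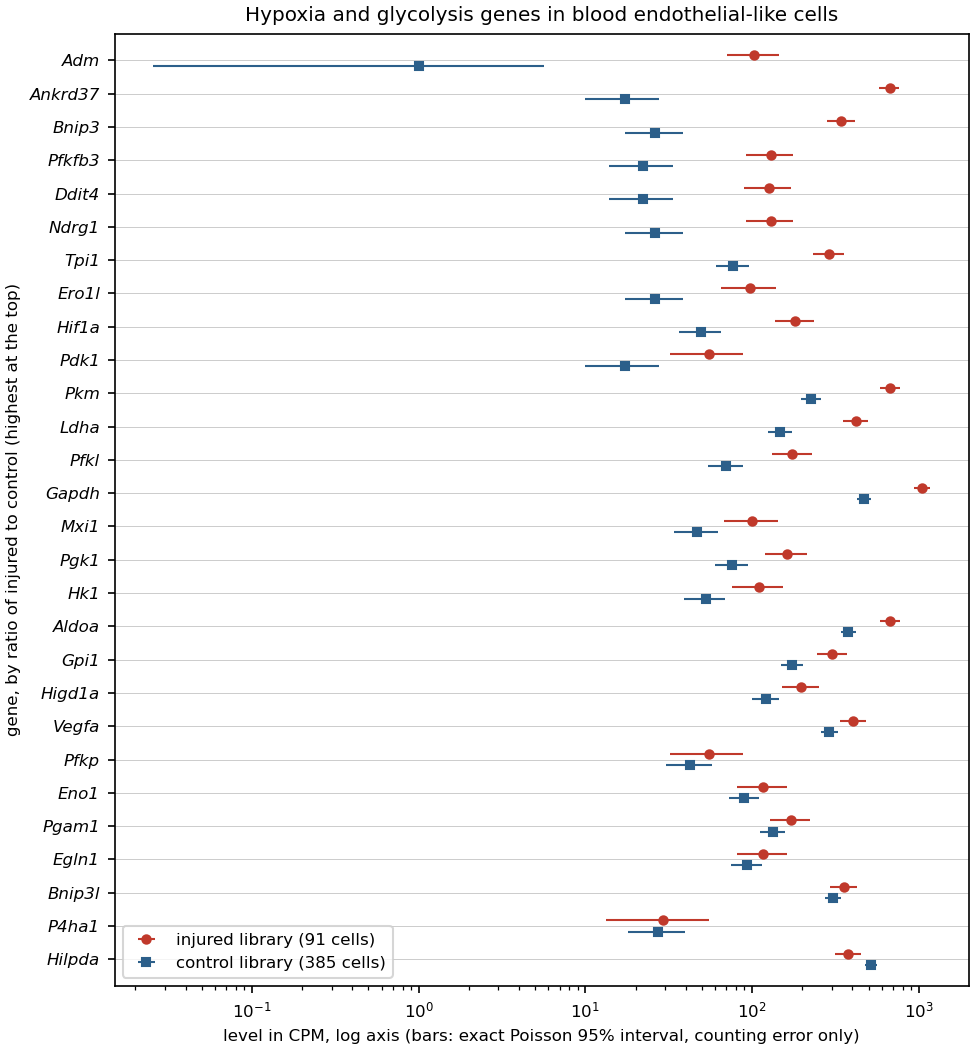
Level of the 28 genes with at least 20 counts in blood endothelial-like cells, in CPM on a log axis, with the injured library as red circles (91 cells) and the control library as blue squares (385 cells); bars are exact 95% Poisson intervals for counting error only. The intervals of Adm, Ankrd37 and Bnip3 lie far apart, with 103, 669 and 343 CPM in injured cells and 1.01, 17.2 and 26.3 CPM in control cells, whereas Hilpda at the bottom is the one gene with a ratio under 1.

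The 3 widest ratios belonged to a target of the factor with no enzyme role, a secreted peptide and a mitophagy receptor. Ankrd37 had 669 CPM in injured cells (581–766, 207 counts), against 17.2 CPM in control cells (10.0–27.5, 17 counts), a ratio of 38.9 (23.7–68.1). It was found in 43 of 91 injured cells (47.3%) and 13 of 385 control cells (3.38%), and the single highest injured cell held 50 of the 207 counts. Adm, which encodes a vasodilator peptide made by endothelium, had 103 CPM in injured cells (70.7–146, 32 counts), against 1.01 CPM in control cells (0.0256–5.64, 1 count), a ratio of 102 (17.1–4162). With 1 control count this size is loose: the log2 ratio of 6.68 became 2.49 with a stricter mitochondrial limit of 10% and 3.33 with doublets kept in. Bnip3, which marks mitochondria for removal, had 343 CPM in injured cells (280.4–414), against 26.3 CPM in control cells (17.2–38.5), a ratio of 13.02 (8.42–20.8).

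Shares of cells were compared after thinning every cell to 1000 UMIs, which left 57 injured and 231 control cells and left out 34 and 154 shallower ones. Ankrd37 then appeared in 36.8% of injured cells (24.4–50.7), against 0.433% of control cells (0.0110–2.39). Bnip3 appeared in 33.3% of injured cells (21.4–47.1), against 1.73% of control cells (0.474–4.37), and Adm in only 2 injured cells, against 1 control cell. For comparison, B cell-like cells, thinned in the same way to 58 injured and 314 control cells (medians before thinning 3381.5 and 4500 UMIs), showed each of Ankrd37 and Bnip3 in 1.72% of injured and 1.27% of control cells. In T cell or ILC2-like cells Ankrd37 appeared in 0.930% of 215 injured and 0.667% of 300 control cells, and Bnip3 in 0.465% and 0.333%. The part of free RNA in these shares was not tested.

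Regulators and stress-response genes were higher as well. Hif1a had 181 CPM in injured cells (137–235), against 49.6 CPM in control cells (36.7–65.5), a ratio of 3.65 (2.44–5.47). Pfkfb3, whose product makes the activator of phosphofructokinase and drives endothelial glycolysis, had 129 CPM in injured cells, against 22.3 CPM in control cells (5.81, 3.37–10.3). Ddit4 had 126 CPM in injured cells, against 22.3 CPM in control cells (5.66, 3.28–10.0). Its log2 ratio of 2.50 became 1.12 at a finer clustering and 1.04 with the 35 genes and the pathway lists kept among the clustering genes. Ndrg1 had 129 CPM in injured cells, against 26.3 CPM in control cells (4.91, 2.93–8.39), and the endoplasmic reticulum oxidase gene Ero1l 96.9 CPM, against 26.3 CPM (3.69, 2.11–6.49). The Egln1 hydroxylase gene, in contrast, was under the threshold at 116 CPM in injured and 93.1 CPM in control cells (1.25, 0.826–1.86), and Egln3 had 1 count in injured and 0 in control cells.

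Of the glycolytic enzymes, 4 of 5 measured genes of the upper steps and 6 of 8 of the lower steps were higher. The triosephosphate isomerase gene Tpi1 had 288 CPM in injured cells, against 76.9 CPM in control cells (3.74, 2.72–5.15). Pyruvate kinase (Pkm) had 672 CPM in injured cells, against 227 CPM in control cells (2.97, 2.44–3.60), and Ldha 420.1 CPM, against 148 CPM (2.84, 2.23–3.63). Gapdh had 1047 CPM in injured cells, against 470.4 CPM in control cells (2.23, 1.93–2.57), and Pgk1 162 CPM, against 75.9 CPM (2.13, 1.46–3.09). Pdk1, a pyruvate dehydrogenase kinase gene, had 17 counts in each library and a ratio of 3.19 (1.53–6.66). The remaining genes called higher were Pfkl, Mxi1, Hk1, Aldoa, Gpi1 and Higd1a, with ratios of 2.50, 2.15, 2.09, 1.79, 1.75 and 1.62. Eno1, Pgam1, Pfkp, Bnip3l and P4ha1 stayed under the threshold, with ratios between 1.06 and 1.29.

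Transporter genes were too sparse to measure here. Slc2a1 had 15 counts in injured and 4 in control cells, and the lactate exporter gene Slc16a3 18 and 1, while Slc2a3 and Hk2 had none in either library. A count of 0 here allows up to 9.69 CPM in injured and 3.03 CPM in control cells. Pfkfb4 had 1 count in injured and 4 in control cells, and Ak4 had 2 and 0.

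Vegfa and Hilpda, a lipid-droplet protein gene, were abundant in endothelial-like cells of both libraries and stayed under the threshold. Hilpda had 378 CPM in injured cells (313–453), against 517 CPM in control cells (473–564), a ratio of 0.731 (0.593–0.896) that stayed under the threshold. Vegfa had 404 CPM in injured cells (336–481), against 291 CPM in control cells (259–327), a ratio of 1.39 (1.11–1.72). The Vegfa value depended on the processing. Its log2 ratio of 0.47 became -1.33 at a finer clustering. With the 35 genes and the pathway lists kept among the clustering genes it became -1.43. It became 1.88 with each library clustered alone, 0.80 with each cell weighted the same and 0.82 with a mitochondrial limit of 10%. Each of these alternative values lies past 1.5-fold.

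The class joined 2 clusters, and both held cells of both libraries. Cluster 2, with 66 injured and 272 control cells of 910.5 and 894.5 UMIs at the median, held markers of aerocytes (gas-exchange capillary cells) and of general capillary cells. These markers differed between its injured and control cells. Plvap had 129 CPM in injured and 505 CPM in control cells, and Fibin 67.3 and 347 CPM. Gpihbp1 (1028 and 780 CPM), Prx (661 and 388 CPM) and Apln (331 and 191 CPM) lay the other way. The part of these differences in the ratios was not tested. Cluster 13, with 25 injured and 113 control cells of 4543 and 4515 UMIs, held general capillary markers. It also held arterial markers, with Sox17 at 582 CPM in injured and 518 CPM in control cells and Gja4 at 287 and 394 CPM. In cluster 2, 19 of 25 measured genes were higher and 0 lower, where 22.3% of all genes were higher and 21.5% lower. In cluster 13, 14 of 26 were higher and 3 lower, where 21.5% were higher and 22.5% lower.

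Ankrd37 and Bnip3 were higher in both clusters. Ankrd37 had 728 CPM in injured and 12.8 CPM in control cells of cluster 2 (ratio 57.1, 23.8–179), and 602 CPM in injured and 20.1 CPM in control cells of cluster 13 (29.9, 16.3–60.1). Bnip3 had 441 CPM in injured and 25.5 CPM in control cells of cluster 2 (17.3, 8.88–37.6), and 233 CPM in injured and 26.8 CPM in control cells of cluster 13 (8.67, 4.66–16.8). Hilpda and Vegfa split by cluster. Hilpda had 465 CPM in injured and 375 CPM in control cells of cluster 2 (1.24, 0.928–1.65), but in cluster 13 it was 2.18-fold lower (1.57–3.08), at 281 CPM in injured and 610.3 CPM in control cells. Vegfa had 116 CPM in injured and 130.1 CPM in control cells of cluster 2 (0.894, 0.499–1.54), but was higher in cluster 13, at 725 CPM in injured and 397 CPM in control cells (1.83, 1.44–2.30). The lower-glycolysis genes were further apart in cluster 2, where Gapdh had a ratio of 2.59 (2.14–3.13) and Pgk1 2.34 (1.47–3.73), than in cluster 13, where the values were 1.49 (1.16–1.90) and 1.28 (0.588–2.58). The difference between clusters was not tested. Adm had 22 counts in injured and 1 in control cells of cluster 2, and 10 and 0 in cluster 13.

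The genes were also summed in each cell. Thinned to 1000 UMIs, injured endothelial-like cells held a median of 8 UMIs of the 35 genes (quartiles 5 and 9), from 6 different genes, and control cells held 4 (quartiles 2 and 5), from 3 genes. The lower quartile of the injured cells equalled the upper quartile of the control cells in both clusters.

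**Figure D3:**
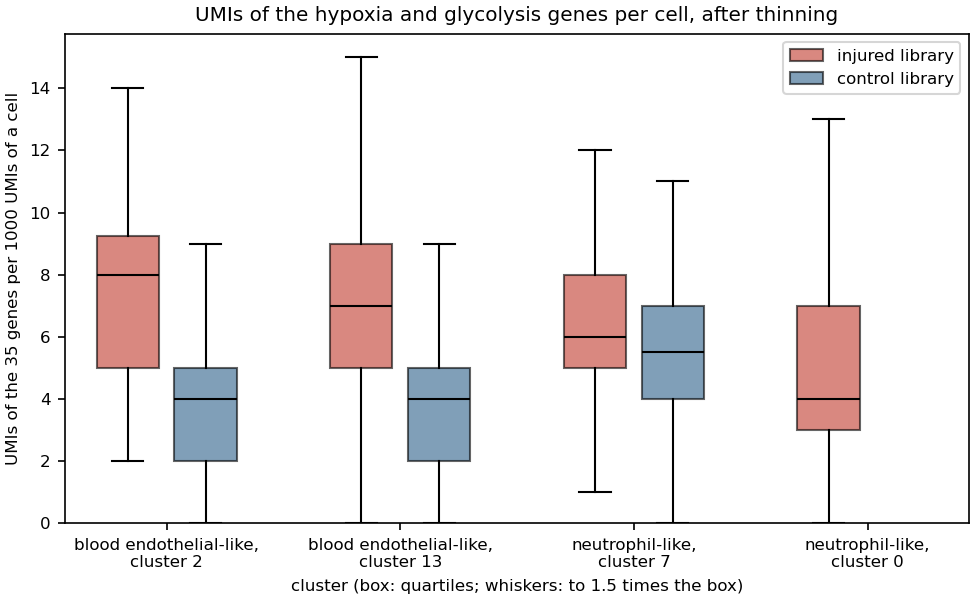
UMIs of the 35 genes together per cell, after thinning each cell to 1000 UMIs, in the endothelial-like clusters 2 and 13 and the neutrophil-like clusters 7 and 0; boxes are quartiles with the median as a line, whiskers reach to 1.5 times the box, red is the injured and blue the control library. Medians were 8 in injured and 4 in control cells of cluster 2, 7 and 4 in cluster 13, and 6 and 5.5 in cluster 7; cluster 0 had 4 control cells after thinning, too few for a box.

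Several other quantities moved with these values, and their part in them was not tested. The summed level of 17 genes of the dissociation and stress response was 6398 CPM in injured and 9646 CPM in control endothelial-like cells, with 10 of 16 measured genes lower and 0 higher. Neutrophil markers reached 216 CPM in injured and 67.8 CPM in control cells (10 and 8 of 10 detected), and the 6 venous markers 1422 CPM in injured and 589 CPM in control cells. Most of that sum was Vwf, at 1257 CPM in injured and 339 CPM in control cells, while Prss23 lay the other way, at 19.4 CPM in injured and 124 CPM in control cells. In cluster 13 Vwf had 2293 CPM in injured and 448 CPM in control cells, and Prss23 had 34.2 and 166 CPM. Median mitochondrial shares were 7.05% in injured and 7.25% in control cells.

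Other genes of the same pathways were read from 4 further lists. Of 31 measured genes of the wider hypoxia pathway, 16 were higher and 1 lower in injured endothelial-like cells, where 20.3% of all genes were higher and 18.8% lower. Their median log2 ratio was 0.64, against 0.03 over all genes. The inducible nitric oxide synthase gene Nos2 had 51.7 CPM in injured cells, against 5.06 CPM in control cells (10.2, 3.58–35.7). Gbe1, the glycogen branching enzyme gene, had 113 CPM in injured cells, against 16.2 CPM in control cells (6.99, 3.77–13.5). Epas1, which encodes the alpha subunit most abundant in endothelium, was high in both, at 2963 CPM in injured and 2695 CPM in control cells (1.10, 1.02–1.19). The one gene called lower was Cox4i2, a cytochrome oxidase subunit gene, 1.51-fold lower (0.804–3.10).

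Of 34 measured genes of mitochondrial oxidation, 6 were higher and 6 lower, shares close to the 20.3% and 18.8% over all genes, and the median log2 ratio was -0.05. The highest were the citrate synthase gene Cs, Ogdh and Dlat, with ratios of 2.62, 2.35 and 1.92, and the lowest Fh1, Idh3b and Tfam, which were 3.13-fold, 2.02-fold and 1.69-fold lower in injured cells. Of 6 measured genes of the pentose phosphate pathway, Pgd was higher (1.71, 0.850–3.31), while Rpia and Taldo1 were 3.44-fold and 1.91-fold lower. Of the 4 measured among 31 other glycolysis and glycogen genes, Gbe1 was higher and Pgm2 was 2.06-fold lower (0.923–5.40). The glycogen phosphorylase gene Pygb was called lower with 16.2 CPM in injured and 24.3 CPM in control cells, from 5 and 24 counts.

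Neutrophil-like cells numbered 588 injured and 125 control cells, with median depths of 2060 and 2687 UMIs. Median mitochondrial shares were 1.77% in injured and 0.643% in control cells. The dissociation and stress list was at 29496 CPM in injured and 37446 CPM in control cells, with 3 of 16 measured genes higher and 4 lower. The part of both in the values of this class was not tested. Here all 3 genes of the oxygen-sensing group (Hif1a, Egln1 and Egln3) were called higher in the injured cells, Egln1 with an interval that includes 1. Of the 3 transporter genes, 2 were called lower, but Slc2a3 among them changed sign in the cluster that both libraries shared. Of 30 measured, 9 were called higher and 3 lower, where 52.5% of the 6222 genes measured were higher and 9.55% lower. The genes' median log2 ratio was 0.31, below the 0.64 over all genes, and their summed level was alike at 5599 CPM in injured and 5780 CPM in control cells. That shift of all genes matters for every ratio of this class: scaled by the median gene instead of the total, log2 ratios drop by 0.61, and 3 genes were higher (Egln3, Hif1a and Tpi1) and 11 lower.

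Egln3 stood out among them. It had 192 CPM in injured neutrophil-like cells (168–218, 234 counts), against 11.7 CPM in control ones (3.19–30.0, 4 counts), a ratio of 16.4 (6.30–60.5), and its log2 ratio was 4.03, or 3.42 with the median gene as scale. Thinned to 1000 UMIs, it appeared in 13.3% of 542 injured cells (10.5–16.4), against 0.893% of 112 control cells (0.0226–4.87). In B cell-like cells it appeared in 0 of 58 injured and 0 of 314 control cells, which at a limit of 3 cells allows shares of up to 5.17% and 0.955%. Unthinned shares in neutrophil-like cells were 23.5% of injured and 3.20% of control cells, and 71.3% of all injured Egln3 counts lay in this class.

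Hif1a had 282 CPM in injured neutrophil-like cells (253–313), against 108 CPM in control ones (76.4–149), a ratio of 2.60 (1.85–3.75). After thinning it was seen in 23.2% of injured cells, against 8.04% of control cells. Tpi1 had 60.6 CPM in injured cells, against 23.4 CPM in control cells (2.59, 1.25–6.21), Pfkfb3 73.7 CPM, against 32.2 CPM (2.29, 1.22–4.74), and Pgam1 205 CPM, against 117 CPM (1.75, 1.25–2.50). Hilpda, Ero1l, Egln1 and Bnip3 were called higher with ratios of 1.96, 1.82, 1.75 and 1.57, but each had 13 or fewer control counts and an interval that includes 1. Scaled by the median gene, these 4, Pgam1 and Pfkfb3 kept their sign and were under the threshold.

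The 3 genes called lower, a share close to that over all genes, were Slc16a3, Slc2a3 and Hk2. Slc16a3, the lactate exporter, had 315 CPM in injured cells (285–349), against 850.0 CPM in control cells (755–954), 2.69-fold lower (2.31–3.15). Slc2a3, the high-affinity glucose transporter of neutrophils, had 206 CPM in injured cells (181–233), against 372 CPM in control cells (310.3–443), 1.81-fold lower (1.45–2.25), but its log2 ratio of -0.86 became 0.70 with the shared cluster alone and 0.80 with each library clustered alone. The hexokinase gene Hk2 had 37.7 CPM in injured cells, against 73.3 CPM in control cells, 1.94-fold lower (1.14–3.23). Slc2a1 was not among them, with 159.8 CPM in injured and 108 CPM in control cells (1.47, 1.03–2.15), and that ratio changed sign with the median gene as scale (log2 0.56 and -0.05). Gapdh had 864 CPM in injured and 1069.8 CPM in control cells (0.808, 0.717–0.913), Ldha 264 and 214 CPM (1.23, 0.954–1.61), Pgk1 102 and 96.7 CPM (1.06, 0.717–1.60) and Vegfa 85.2 and 67.4 CPM (1.26, 0.799–2.08). A single control cell held 12 of the 23 control Vegfa counts. Ankrd37 had 19 counts in injured and 0 in control cells, Adm 1 and 0, Pdk1 12 and 3, and P4ha1 17 and 2, all too few to measure.

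The class held cluster 0, with 428 injured and 9 control cells, and cluster 7, with 160 injured and 116 control cells. In the injured library cluster 0 is the population with Siglecf at 267.5 CPM and Csf1 at 1022 CPM, whereas cluster 7 had 7.83 and 102 CPM of these and 14559 CPM of the circulating-neutrophil gene Retnlg, against 253 CPM in cluster 0. The 9 control cells of cluster 0 also held mast cell and basophil markers at 5100 CPM, 6 of 6 detected, so no value of that cluster was compared between libraries. These 9 cells, with 26469 of the 341188 control UMIs of the class, stayed in the class values above. Their part in those values was not tested. Alveolar macrophage markers reached 2188 CPM in injured and 261 CPM in control neutrophil-like cells, and their part in the class values was not tested.

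**Figure D4:**
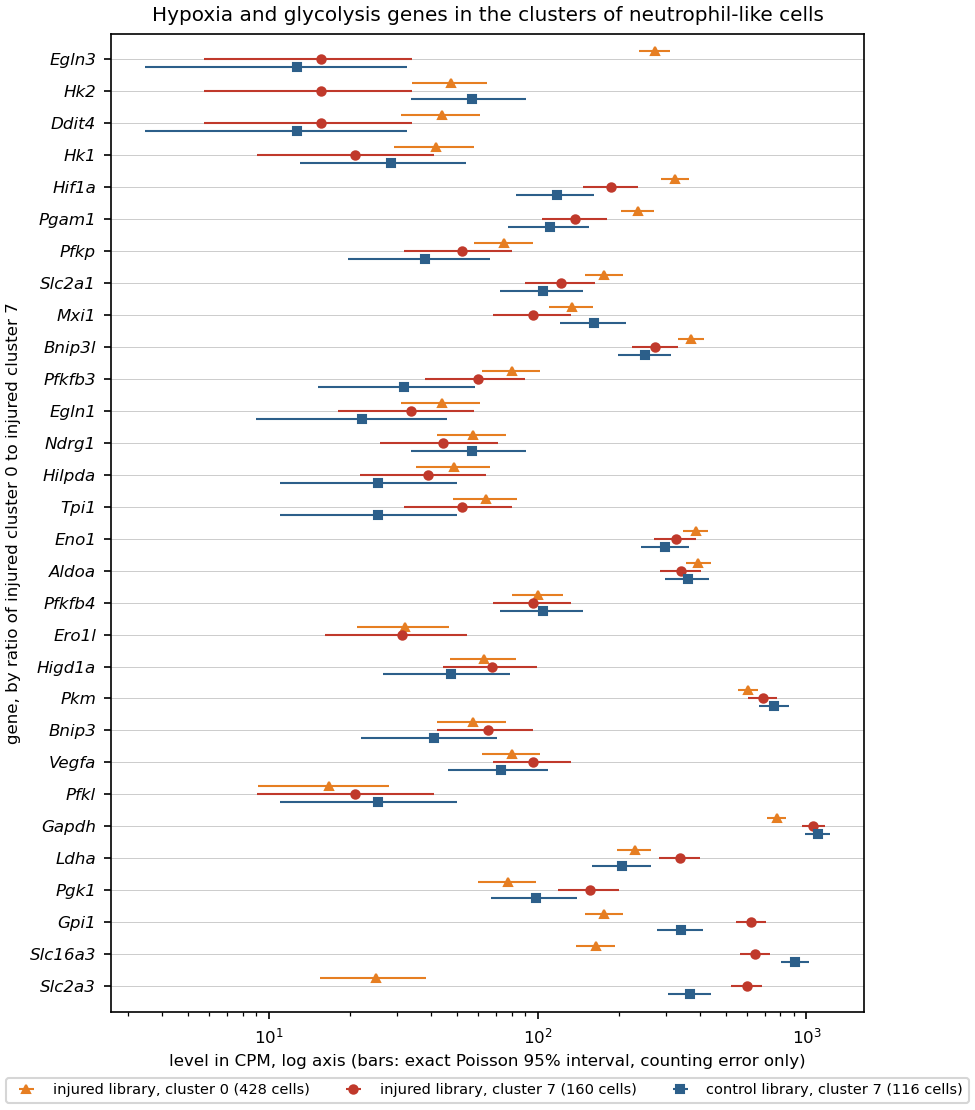
Level of the 30 genes measured in injured neutrophil-like cells, in CPM on a log axis, in cluster 0 of the injured library (orange triangles, 428 cells), cluster 7 of the injured library (red circles, 160 cells) and cluster 7 of the control library (blue squares, 116 cells); bars are exact 95% Poisson intervals for counting error only, and a level of 0 is not drawn. Egln3 at the top separates cluster 0, at 272 CPM, from both sets of cluster 7, and Slc2a3, Slc16a3 and Gpi1 at the bottom are highest in cluster 7.

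Within cluster 7, where both libraries had cells, Slc2a3 changed direction against the class value, and Slc16a3 and Slc2a1 kept theirs. Of 25 measured genes, 10 were higher and 2 lower, where 23.9% of all genes were higher and 15.1% lower. Slc2a3 was higher there, at 600.0 CPM in injured and 369 CPM in control cells (1.63, 1.30–2.05), the opposite of its class value. Slc16a3 had 644 CPM in injured and 909 CPM in control cells, 1.41-fold lower (1.19–1.68) and under the threshold, and Slc2a1 had 123 and 105 CPM (1.17, 0.733–1.88). Hk2 was 3.65-fold lower (1.39–11.2), at 15.7 CPM in injured and 57.2 CPM in control cells. The isomerase gene Gpi1 had 623 CPM in injured and 340.0 CPM in control cells (1.83, 1.45–2.33), Ldha 339 and 207 CPM (1.64, 1.21–2.25), Pgk1 157 and 98.5 CPM (1.59, 1.01–2.54) and Hif1a 188 and 118 CPM (1.60, 1.06–2.44). Mxi1, a transcriptional repressor gene, was 1.68-fold lower (1.08–2.64). Egln3 had 6 counts in injured and 4 in control cells of cluster 7, too few to measure.

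Inside the injured library, cluster 0 was also set against cluster 7. This contrast between clusters is a description, since the clusters were drawn on these cells. Of 30 measured genes, 6 were higher and 4 lower in cluster 0, where 54.1% of all genes were higher and 10.7% lower. Egln3 had 272 CPM in cluster 0, against 15.7 CPM in cluster 7 (17.4, 7.87–47.9), Hk2 47.8 CPM, against 15.7 CPM, and Ddit4 44.2 CPM, against 15.7 CPM. Hif1a had 325 CPM in cluster 0, against 188 CPM in cluster 7. Slc2a3 lay the other way, at 25.1 CPM in cluster 0, against 600.0 CPM in cluster 7, which is 23.9-fold lower (15.3–39.4). Slc16a3 was 3.91-fold lower, Gpi1 3.53-fold and Pgk1 2.02-fold. Cluster 0 held 428 of the 588 injured and 9 of the 125 control neutrophil-like cells.

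The other lists were read in neutrophil-like cells too. Of 21 measured genes of the wider hypoxia pathway, 14 were higher and 2 lower, where 52.5% of all genes were higher and 9.55% lower, and their median log2 ratio was 1.14, against 0.64 over all genes. Metallothionein gene Mt1 had 486 CPM in injured cells, against 20.5 CPM in control cells (23.7, 11.4–59.2), and the clock-linked repressor gene Bhlhe40 559.6 CPM, against 41.0 CPM (13.6, 8.07–25.1). Flt1, a Vegfa receptor gene, had 52 counts in injured and 1 in control cells (14.5, 2.50–585). Ets1 and Epas1 were 2.24-fold and 2.20-fold lower. Of 27 measured genes of mitochondrial oxidation, 20 were higher and 0 lower scaled by total, beside the same shares over all genes, and 9 higher and 2 lower with the median gene as scale. Their median log2 ratio was 0.98. Its highest ratios were those of Sdhc, Ndufv1 and Ogdh, at 10.6, 5.03 and 3.63. In the pentose phosphate pathway Taldo1 had 748 CPM in injured cells, against 2266 CPM in control cells, 3.03-fold lower (2.75–3.34), and the entry enzyme gene G6pdx was 2.10-fold lower, while Rpe was higher (5.03, 1.30–43.1). Of 5 measured among the other glycolysis genes, Slc2a6, Hk3 and Pgm2 were 2.38-fold, 2.15-fold and 1.67-fold lower and none was higher.

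Alveolar macrophage-like cells numbered 460 injured and 452 control cells. Of 31 measured genes, 18 were higher and 1 lower, where 13.3% of all genes were higher and 20.6% lower, and the 35 genes summed to 7889 CPM in injured and 5191 CPM in control cells. Pgam1 had 582 CPM in injured cells, against 139 CPM in control cells (4.20, 3.90–4.52), and Slc2a1 40.7 CPM, against 10.4 CPM (3.92, 2.98–5.23). Adm (28 and 2 counts) and Ankrd37 (36 and 6 counts) had the widest ratios, 12.5 (3.14–108) and 5.34 (2.23–15.5), at levels of only 4.04 and 5.19 CPM in injured cells. P4ha1 was 1.57-fold lower (1.28–1.93).

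Most of these macrophages lay in clusters held by a single library, cluster 3 with 325 injured and 0 control cells and cluster 4 with 0 injured and 304 control cells. In cluster 6, the shared cluster with 135 injured and 148 control cells, 7 of 15 measured genes were higher and 1 lower, where 17% of all genes were higher and 29% lower. Pgam1 had 488 CPM in injured and 143 CPM in control cells there. The dissociation and stress list was at 2594 CPM in injured and 4851 CPM in control alveolar macrophage-like cells, and its part was not tested.

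In T cell or ILC2-like cells (215 injured and 301 control), 14 of 29 measured genes were higher and 0 lower, where 38.7% of all genes were higher and 5.27% lower. Ddit4, which glucocorticoids and nutrient stress also induce, had 87.7 CPM in injured cells, against 9.21 CPM in control cells (9.52, 5.68–16.9). Slc16a3 had a ratio of 6.12 (2.77–15.3), Egln3 5.69 (2.25–17.1) and Pfkfb3 3.24 (1.53–7.32). With the median gene as scale, 8 were higher and 2 lower, P4ha1 and Pfkl. The class joined cluster 5, with 67 injured and 225 control cells, and cluster 9, with 148 injured and 76 control cells. In cluster 5, 4 of 22 measured genes were higher and 1 lower, where 28.4% of all genes were higher and 12.9% lower, and in cluster 9, 9 of 27 were higher and 1 lower, where 30.7% were higher and 9.08% lower. Ddit4 was higher in both, with ratios of 10.4 (4.16–29.5) and 4.60 (2.39–9.92), whereas Hif1a had 1.40 (0.871–2.20) in cluster 5 and 1.92 (1.44–2.60) in cluster 9.

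B cell-like cells (58 injured and 317 control) had 8 genes called lower, among them Aldoa, Pgk1 and Pkm of lower glycolysis. Of 26 measured genes, 6 were higher and those 8 lower, where 20.9% of all genes were higher and 19.8% lower. Pfkfb3, Slc2a3, Ddit4 and Egln1 were highest, with ratios of 3.83, 3.54, 3.07 and 1.82 and 8 to 12 counts each in injured cells. Pfkp was 3.13-fold lower (1.02–15.7), Pfkfb4 had 2 counts in injured and 23 in control cells, and Pgk1 had 42.4 CPM in injured cells, against 77.4 CPM in control cells, 1.83-fold lower (1.01–3.63). Adm was at least 1.97-fold lower, with 0 counts in injured cells, placed at 3 counts for the bound, and 20.9 CPM in control cells, where 34 counts lay in 10 of 317 cells and 1 cell held 10 of them.

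In alveolar epithelial-like cells (103 injured and 84 control) depth differed most, with medians of 7706 UMIs in injured and 1215.5 UMIs in control cells. Of 28 measured genes, 13 were higher and 3 lower, where 48.3% of all genes were higher and 12.2% lower. With the median gene as scale, which moved log2 ratios by -0.59, 5 were higher and 5 lower. Pfkfb3 (74 and 1 counts), Hif1a (120 and 2 counts) and Ndrg1 (52 and 1 counts) had ratios of 8.38 (1.46–335), 6.79 (1.84–56.7) and 5.89 (1.01–237), and Eno1 had 311 CPM in injured cells, against 113 CPM in control cells (2.74, 1.69–4.76). P4ha1, Higd1a and Pfkp were 1.72-fold, 1.70-fold and 1.52-fold lower. The dissociation and stress list moved too, with 13 of 17 genes higher and 0 lower (4584 CPM in injured and 2281 CPM in control cells), and median mitochondrial shares were 4.39% in injured and 1.51% in control cells. Their part in the values was not tested.

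In airway secretory-like cells (78 injured and 117 control), 4 of 13 measured genes were higher and 1 lower, where 40.6% of all genes were higher and 10.4% lower. Ldha had 349 CPM in injured cells, against 127 CPM in control cells (2.75, 2.17–3.49). Pfkl, Pkm and Eno1 had ratios of 5.56, 2.04 and 1.74, and Gpi1 was 1.78-fold lower (1.19–2.73). Here 9 of 10 measured dissociation and stress genes were higher and 0 lower (936 CPM in injured and 358 CPM in control cells), and median mitochondrial shares were 0.906% in injured and 0.175% in control cells, whose part was not tested.

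Across the 13 classes that had at least 20 cells in each library taken by itself, the order of levels changed for several genes. The sets of classes differ, so places and counts of highest levels are not over the same classes. Only the injured set holds interstitial macrophage-like, mature dendritic cell-like and mesothelial-like cells. Only the control set holds NK cell-like, classical monocyte-like and nonclassical monocyte-like cells. Endothelial-like cells held the highest level of 14 of the 35 genes in the injured library and of 4 in the control library, and neutrophil-like cells that of 7 and 9. The share of all genes highest in each class is not given here, so these counts have no background. The endothelial-like class held 309478 UMIs in the injured and 988560 UMIs in the control library, so its injured levels are less sure. Among the 14, Ak4 rested on 2 counts, and Higd1a had 197 CPM, close to alveolar epithelial-like cells at 193 CPM. Ankrd37 was highest in injured endothelial-like cells at 669 CPM, far above alveolar epithelial-like cells at 23.4 CPM, whereas in the control library B cell-like cells (24.0 CPM, 17.0–32.8) and endothelial-like cells (17.2 CPM, 10.0–27.5) had overlapping intervals. Endothelial-like cells held 57.0% of all Ankrd37 counts of the injured library and 17.3% of those of the control library. Bnip3 was likewise highest in injured endothelial-like cells at 343 CPM, against 63.1 CPM in interstitial macrophage-like and 59.8 CPM in neutrophil-like cells, and in the control library alveolar epithelial-like cells led at 60.03 CPM with endothelial-like cells in place 4.

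**Figure D5:**
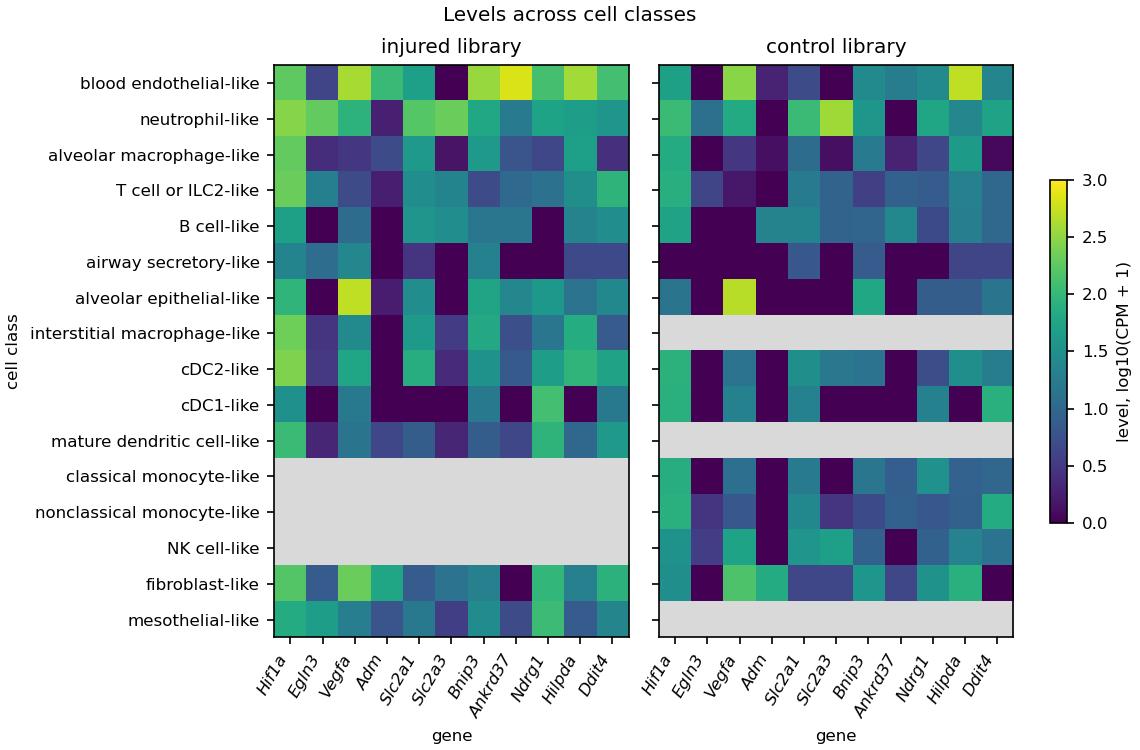
Level, as log10 of CPM plus 1, of 11 genes (columns) across cell classes (rows) in the injured library (left) and the control library (right); grey marks classes with fewer than 20 cells in that library. Ankrd37 and Bnip3 peak in endothelial-like cells in the injured library, at 669 and 343 CPM, Egln3 and Slc2a3 peak in neutrophil-like cells in both, and Vegfa peaks in alveolar epithelial-like cells in both.

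Other genes kept their leading class. Vegfa was highest in alveolar epithelial-like cells in both libraries (522 CPM injured, 474 CPM control), followed by endothelial-like (404 and 291 CPM) and fibroblast-like cells (207 and 146 CPM). Hilpda was highest in endothelial-like cells in both (378 and 517 CPM). Hif1a had its highest level in neutrophil-like cells in both (282 and 108 CPM), with cDC2-like cells next (263 and 84.1 CPM). These cDC2-like levels lie within the intervals of the neutrophil-like levels given above, so that lead is not settled. For Hif1a, endothelial-like cells stood in place 6 among injured and place 9 among control classes. Egln3, Slc2a1 and Slc2a3 were also highest in neutrophil-like cells in both libraries. Adm led in endothelial-like cells in the injured library (103 CPM) and in fibroblast-like cells in the control library (69.5 CPM), where fibroblast-like cells of the injured library had 58.2 CPM. Ndrg1 led in endothelial-like cells in the injured library (129 CPM), close to cDC1-like cells (124 CPM, from 8 counts), and in neutrophil-like cells in the control library (58.6 CPM). Ddit4 led in endothelial-like cells in the injured library (126 CPM). In the control library its highest level was in cDC1-like cells (79.7 CPM), with nonclassical monocyte-like cells next (69.0 CPM). The control cDC1-like class held only 36 cells and 50179 UMIs, so that lead is not settled.

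Classes with fewer cells are given by level only. In cDC2-like cells (127 injured and 35 control), Ndrg1 had 47.1 CPM in injured cells (109 counts), against 4.31 CPM in control cells (2 counts), Vegfa 57.8 CPM, against 12.9 CPM, and Pgk1 357 CPM, against 90.6 CPM. Fibroblast-like cells (39 injured and 82 control) had Hif1a at 155 CPM (99.4–231) in injured and 29.8 CPM (13.6–56.6) in control cells. Interstitial macrophage-like cells, of which there were 267 injured and 2 control cells, had Hif1a at 219 CPM, Bnip3 at 63.1 CPM and no Adm count in the injured library.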

How the data were processed

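Deposited matrices held raw UMI counts per gene and cell barcode from 10x Single Cell libraries, made by the authors with Cell Ranger 4.0.0 per the file headers. The submitters' processing notes also name STAR 2.7.2c, featureCounts 1.6.3, DESeq2 1.26.0 and 1.28.1 and the builds GRCm38 and mm10, without saying what was used on these libraries, and strand use in counting is not given in the sources used here. The injured library held 2702 barcodes with 22314603 UMIs and the control library 2674 with 17207816.

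Cells with at least 500 UMIs, 200 genes and at most 15% mitochondrial UMIs were kept, and 44 doublets were removed from each library by simulated doublets with 40 neighbours, at 0.8% per 1000 cells. Counts were scaled to 10000 per cell, and 2000 variable genes without the 35 genes and the pathway lists, 30 principal components and 20 neighbours gave 24 Leiden clusters at resolution 1 (python-igraph 0.11.9, leidenalg 0.10.2, numpy 2.4.6, scipy 1.17.1, pandas 2.3.3, Python 3.11.15). Clusters were named from 28 marker lists. Counts were summed per class and library and divided by the class total; intervals are exact Poisson and exact conditional ones, shares have exact Clopper-Pearson intervals, and groups at 0 were placed at 3 counts. The scripts were tested on simulated data. Replicates are lacking, so no model was fitted across samples.

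The genes and lists were chosen with earlier results of these data known. Named in the text were the 8 highest and 8 lowest past 1.5-fold in the whole library, endothelial and neutrophil cells, the 4 highest and lowest in other classes, the 3 highest and lowest of each further list, and 6 genes (Hif1a, Vegfa, Slc2a1, Pgk1, Ldha, Gapdh) whatever their values. In the whole library and in endothelial-like cells all others are accounted for by ratio, range or count. In neutrophil-like cells and the other classes, some further measured genes stand in the map of ratios by class without a printed class ratio. The values of 1 gene of the further lists are not reported here. Chosen after values were seen were the joining of AT1 with AT2 and of T with ILC2 cells, the floor for groups at 0, the promoter window shown for each gene, the G and C comparison, the summed UMIs per cell, the contrast of clusters 0 and 7 and Ankrd37 in the map of levels. Alternatives were size factors, count minimums of 1 and 50, 10 CPM added, equal weight per cell, mitochondrial limits of 10% and 25%, no doublet removal, resolutions 0.5 and 2, clustering with all genes or per library, and clusters with 20 cells in both libraries. The cells of 1 cluster of mixed type, led by the proliferation genes Mki67 and Top2a (42 injured and 32 control cells), were put in no class. They were counted in the whole library.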

Additional observations from a re-analysis of the deposited data

Results flagged for a closer look

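For 10 genes, 1 class was called higher and another lower in the injured library, each with an interval that excludes 1; the difference between the classes was not tested, and the values are differences of log2 ratios. Slc2a3 differed by 2.679, being higher in B cell-like cells (log2 1.82) and lower in neutrophil-like cells (-0.86). That neutrophil-like value changed sign with the shared cluster alone (0.70) and with each library clustered alone (0.80). Slc16a3 differed by 4.044, being higher in T cell or ILC2-like cells (2.61) and lower in neutrophil-like cells (-1.43). Within the shared neutrophil-like cluster Slc16a3 was lower but under the threshold. Hk2 differed by 2.407 between alveolar macrophage-like cells (1.45) and neutrophil-like cells (-0.96). Adm differed by 7.655 between endothelial-like cells (6.68) and B cell-like cells (-0.98), where 34 control counts lay in 10 cells. The endothelial-like Adm value rests on 1 control count. Pgk1 differed by 2.276 between alveolar macrophage-like (1.41) and B cell-like cells (-0.87), Pkm by 2.215 and Aldoa by 1.515 between endothelial-like (1.57 and 0.84) and B cell-like cells (-0.65 and -0.67), and Pfkp by 2.555 between T cell or ILC2-like (0.91) and B cell-like cells (-1.65). Gpi1 differed by 1.635 between endothelial-like (0.80) and airway secretory-like cells (-0.83), and Higd1a by 1.469 between alveolar macrophage-like (0.71) and alveolar epithelial-like cells (-0.76). These were looked for among 35 genes and 7 classes.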

How the results depend on the processing

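No paired analysis was possible because there is 1 library per condition, and leaving out a replicate was not possible for the same reason. Of 226 counts of genes under an alternative, 190 stayed within 1.5 times the reported count and 36 did not. The number higher in endothelial-like cells stayed between 18 and 23 over 13 alternatives, and in the whole library between 18 and 20 over 8. Scaling by the median gene gave 3 higher and 11 lower in neutrophil-like, 8 and 2 in T cell or ILC2-like, and 5 and 5 in alveolar epithelial-like cells, 2 lower in airway secretory-like and 0 lower in alveolar macrophage-like cells; in endothelial-like cells it gave 2 lower of the wider hypoxia list, and in neutrophil-like cells 5 lower of that list, 9 higher and 2 lower of oxidation and 5 lower of the pentose phosphate list. With 10 CPM added, 5 genes were lower in B cell-like and 0 in alveolar macrophage-like cells, and in endothelial-like cells 0 of the wider hypoxia, 1 of the other glycolysis and 3 of the oxidation genes were lower. A minimum of 50 counts left 2 higher and 5 lower in B cell-like, 9 higher in T cell or ILC2-like, 2 higher in airway secretory-like and 1 lower in alveolar epithelial-like cells; a minimum of 1 count gave 13 higher and 2 lower in airway secretory-like cells. These follow from fewer or more genes passing the minimum. With each cell weighted the same, lower counts were 1 in the whole library, 1 in T cell or ILC2-like, 2 in airway secretory-like and 2 in endothelial-like cells; a mitochondrial limit of 10% gave 1 lower in the whole library and 2 in endothelial-like cells. Endothelial-like cells had 1 lower at resolution 2 and 1 with all genes kept for clustering. Clusters with 20 cells in both libraries gave 7 higher in alveolar macrophage-like cells, and clustering each library alone gave 7 higher and 3 lower in airway secretory-like cells. Of single ratios, 2368 held, 183 moved (among them sign changes of ratios under the threshold, such as Vegfa in endothelial-like cells) and 3 called ratios changed sign: Vegfa in the whole library with cells weighted the same (log2 -0.00662), and Slc2a3 in neutrophil-like cells with shared clusters (0.70) or each library clustered alone (0.80). Except as stated, the cause was not tested. Not run were B cell-like cells at the 10% limit (48 injured cells) and neutrophil-like cells at resolution 2 (23 control cells). Depth limits the sparse genes: a ratio rests on 20 counts at the least.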
